A study of Drosophila melanogaster with 2 samples.

Results

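The peaks described here are the X chromosome peaks of CrebA-eGFP, a green fluorescent fusion of the bZIP transcription factor CrebA, in Drosophila melanogaster larvae. They are all peaks of the optimal list on the dm6 assembly that lie on chromosome X, 331 of 2238. The remainder comprised 1859 peaks on the large autosome arms, 19 on chromosome 4 and 29 on the mitochondrial genome. Chromatin for immunoprecipitation and sequencing came from whole animals of the strain CrebA-MiMIC-GFP, wandering larvae of the third instar with males and females together. In that strain an intronic eGFP exon turns the endogenous CrebA gene into a fusion gene, so the tagged protein is made wherever CrebA itself is expressed, and both replicates carry the same insertion. There are 2 biological replicates of this single group, labelled 4 and 2. The labels state an anti-GFP precipitation in the free text and CrebA in the antibody field, and unknown age. There was no second genotype or condition, and control libraries were not analysed here. Because whole animals were used and only peak lists were read, tissue could not be checked against marker genes, and binding in fewer cells cannot be told apart from weaker binding in each cell.

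CrebA belongs to the CREB3 family of bZIP factors and is known as an activator of secretory pathway genes in secretory tissues of the fly, where a core with the letters CACGTCA is the kind of site such factors bind. The fly X chromosome is present as a pair in females and as a single copy in males. In males the MSL complex, built around the roX RNAs, raises X transcription after entering at GA-rich elements, to which the zinc-finger protein CLAMP binds. GAGA factor, a different protein, binds GAGAG-type elements throughout the genome, at promoters in particular. The labels give no sex ratio, so fewer X copies per larva and fewer binding sites cannot be told apart in what follows.

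The sequences around X summits are shown first, because the counts below rest on them. The core CACGTCA or its reverse complement TGACGTG lay within 100 bp of the summit of 10 of the 331 X peaks. All 10 sites are printed, 5′ to 3′ on the plus strand of dm6 (RefSeq Release 6), with the core in capitals and in falling order of peak signal. The bases to either side of each core are included.
Hsc70-3 (promoter, chrX:11806414-11806468): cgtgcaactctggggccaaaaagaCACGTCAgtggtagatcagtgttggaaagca
Hsc70-3 (promoter, chrX:11805625-11805679): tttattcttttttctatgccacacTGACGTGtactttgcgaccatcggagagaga
CrebB (promoter, chrX:18366313-18366367): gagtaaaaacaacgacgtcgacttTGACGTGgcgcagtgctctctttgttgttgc
Tlk (promoter, chrX:3776326-3776380): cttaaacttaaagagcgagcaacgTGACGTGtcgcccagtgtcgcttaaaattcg
Mnt (intron, chrX:3676907-3676961): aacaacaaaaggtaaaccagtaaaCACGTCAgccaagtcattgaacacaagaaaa
Mnt (intron, chrX:3695573-3695627): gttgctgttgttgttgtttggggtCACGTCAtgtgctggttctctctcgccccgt
Hsc70-3 (promoter, chrX:11807433-11807487): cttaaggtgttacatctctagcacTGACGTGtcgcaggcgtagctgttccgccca
CG10962 (promoter, chrX:8974485-8974539): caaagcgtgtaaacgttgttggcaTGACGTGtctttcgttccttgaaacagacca
CG15465 (intron, chrX:5092097-5092151): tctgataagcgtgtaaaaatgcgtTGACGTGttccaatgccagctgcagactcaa
CG15465 (intron, chrX:5087498-5087552): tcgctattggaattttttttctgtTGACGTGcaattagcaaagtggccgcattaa

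The first, second and seventh of these lines belong to Hsc70-3, which encodes the fly BiP, the Hsp70 chaperone of the endoplasmic reticulum. Its promoters carried 4 X peaks, with pooled signals of 467.2, 295.9, 254.1 and 146.8 in the units of the authors, and 3 of the 4 held a core. The peaks with 467.2 and 254.1 are separate summits of the same interval. The remaining sites lay at the promoter of CrebB, a CREB-family bZIP factor, at the promoter of the chromatin-associated kinase gene Tlk, in introns of Mnt (a partner of Max in the Myc network), at the promoter of CG10962 and at a pair of intronic peaks whose nearest start site is that of CG15465. The 10 sites fell in 6 clusters of peaks when peaks with summits within 10000 bp of each other were joined. The distance from core to summit ranged from 6 to 82 bp. The site at CrebB was the only one of the 10 with a C directly before the core, read on the strand of the core.

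A second set of windows, 151 bp centred on the summit and again on the plus strand of dm6 (RefSeq Release 6), shows the simple repeats found at X summits. Capitals mark GAGAG or CTCTC in the first 4 lines, and CACACACA in the last line. The first 2 lines are strong promoter peaks that hold GAGAG or CTCTC. The next 2 hold the longest GA runs at a promoter and in an intron, and the last is the strongest peak with the CA repeat. All were picked for their repeats and do not stand for strong X peaks in general. Of the 83 strongest X peaks, 41 held GAGAG or CTCTC within 100 bp of the summit.
Hsc70-3 (promoter, chrX:11805348-11805498): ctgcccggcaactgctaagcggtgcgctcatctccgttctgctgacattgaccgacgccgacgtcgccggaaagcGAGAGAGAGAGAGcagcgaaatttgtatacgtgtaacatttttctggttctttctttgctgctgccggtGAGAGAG
NFAT (promoter, chrX:13641873-13642023): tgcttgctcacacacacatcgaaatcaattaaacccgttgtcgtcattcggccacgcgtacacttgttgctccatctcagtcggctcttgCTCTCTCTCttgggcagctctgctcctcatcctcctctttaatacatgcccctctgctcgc
mgl (promoter, chrX:9496201-9496351): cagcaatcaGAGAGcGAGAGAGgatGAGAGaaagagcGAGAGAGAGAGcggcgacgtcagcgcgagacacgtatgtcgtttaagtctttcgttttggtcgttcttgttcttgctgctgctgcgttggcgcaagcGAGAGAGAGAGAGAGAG
Mnt (intron, chrX:3680781-3680931): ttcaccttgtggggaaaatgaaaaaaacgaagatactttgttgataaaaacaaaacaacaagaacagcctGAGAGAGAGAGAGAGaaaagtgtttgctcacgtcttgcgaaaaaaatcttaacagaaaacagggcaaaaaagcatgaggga
CG32772 (promoter, chrX:4909075-4909225): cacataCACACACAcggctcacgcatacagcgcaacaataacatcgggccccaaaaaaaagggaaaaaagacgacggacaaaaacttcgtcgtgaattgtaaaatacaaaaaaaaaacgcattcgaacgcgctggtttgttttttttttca

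The CACGTCA core was found at 3.02% of X summits (10 of 331, Wilson 95% interval 1.65 to 5.47) and at 1.13% of summits on the autosome arms (21 of 1859, 0.74 to 1.72), the motif being sought on both strands in the 201 bp around the summit. In flanking windows of equal width, centred 1000 bp from the summit on each side, the shares were 1.21% on X and 1.18% on the autosome arms. Among all such windows tiled along the chromosomes, 0.838% of those on X and 0.984% of those on the autosome arms held the core. At promoters the summit share was above the flank share on both. On X it was 6 of 120 peaks (2.31 to 10.5%) against 2.92% of flanks, a value inside that interval. On the autosome arms it was 1.94% (15 of 773, 1.18 to 3.18) against 1.10%. The X promoter flanks with a core, 3 to the left and 4 to the right, include sites printed above at Hsc70-3 and Tlk. Those sites belong to neighbouring peaks about 1000 bp away, so the X flanks are not a background free of peaks. Away from promoters the X had 1.90% against 0.237% (4 of 211 peaks) and the autosome arms 0.552% against 1.24%. The X and autosome intervals overlap slightly, the highest single autosome arm had 2.05%, and the X value rests on 10 peaks, 3 of them at a single gene. These 10 X peaks fell in 6 clusters, whereas the 21 on the autosome arms fell in 21. Repeated peaks at the same loci therefore weigh more in the X share. All 10 X peaks ranked within the strongest 141 of the 331. Their median signal was 180.9, against 112.8 for all X peaks. On the autosome arms the corresponding medians were 146.6 and 109.7. Intervals on shares cover counting error only, and neighbouring peaks are not independent.

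Simple repeats were more frequent at X summits than at those of the autosome arms, and also more frequent along X as a whole. CACACACA or its complement occurred at 16.3% of X summits (54 of 331, 12.7 to 20.7) and 9.31% of autosome summits (173 of 1859, 8.07 to 10.7), with 7.62% to 10.2% on the single arms. The tiled windows gave 5.77% on X and 3.77% on the autosome arms, and the flanks 6.95% and 5.54%. On X the repeat was more common away from promoters, at 19.4% of 211 peaks (14.7 to 25.3), than at promoters, at 10.8% of 120 peaks (6.44 to 17.7), while on the autosome arms these shares were 9.39% and 9.19%. GAGAGAGA occurred at 10.6% of X summits (35 of 331, 7.70 to 14.4) and 5.70% of autosome summits (4.74 to 6.85; 5.31% to 6.16% on the single arms), against 1.54% and 1.05% of tiled windows. An unbroken GA or TC run of at least 10 bases was present at 18 X peaks, or 5.44% (3.47 to 8.43). On the autosome arms the share was 2.91% (2.23 to 3.77). Tiled windows held such a run in 0.866% of cases on X and 0.468% on the autosome arms. The background thus differed in the same direction. The longest such run at an X summit had 17 bases, at the promoter of mgl, a low-density lipoprotein receptor relative.

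The shorter element GAGAG did not separate the chromosomes. It occurred at 43.2% of X summits (143 of 331, 37.97 to 48.6) and 39.5% of autosome summits (37.3 to 41.8), and the direction turned in replicate 4 alone, where the shares were 41.4% and 41.9%. Both shares stood above their flanks, at 28.3% and 24.99%, and above the tiled windows, at 21.5% and 21.6%. Among X promoter peaks 54.2% held GAGAG (45.3 to 62.8), and among the others 37.0% (30.7 to 43.7). Among the 3229 X peaks of the pooled relaxed list that did not reach the optimal list, the share was 22.6%, close to the flanks of those same peaks at 22.5%. The GATA-type letters AGATAA occurred at 11.2% of X summits (8.22 to 15.0) and 15.8% of autosome summits (14.2 to 17.5), with 9.79% and 11.1% of tiled windows. TATCGATA, the centre of the site of the boundary factor DREF, occurred at 1 X summit, the forkhead letters TGTTTAC at 5.44% and the shorter letters ACGTG at 19.6%, with 0.914%, 6.401% and 19.5% on the autosome arms. In tiled windows of X and of the autosome arms, TATCGATA had shares of 0.706% and 0.516%, TGTTTAC 3.49% and 3.90%, and ACGTG 15.3% and 16.0%. Overlapping matches counted once per window, and GAGAGAGA windows are also GAGAG windows.

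**Figure D1:**
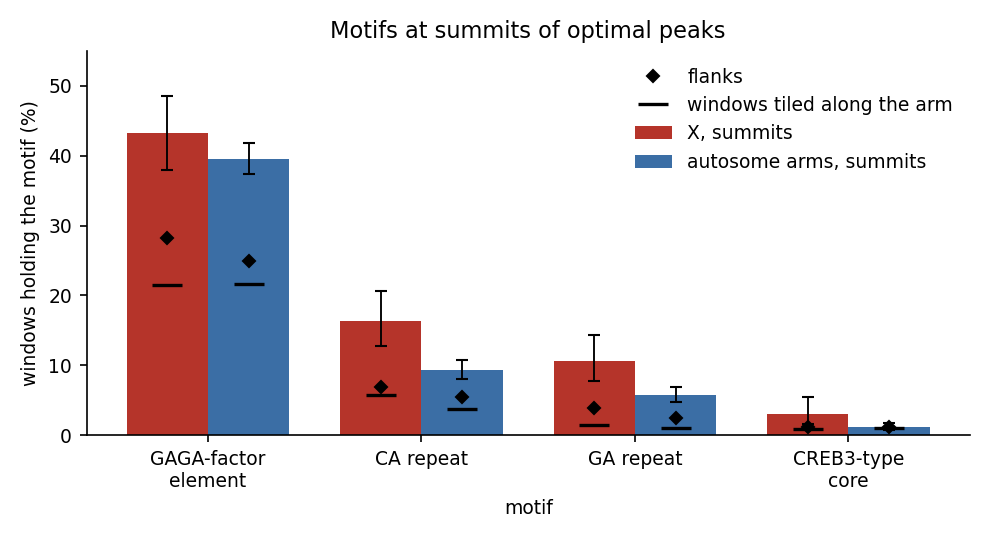
Share of 201 bp windows at optimal summits that hold GAGAG (labelled GAGA-factor element), CACACACA (CA repeat), GAGAGAGA (GA repeat) or CACGTCA (CREB3-type core), in percent, for 331 X peaks and 1859 peaks on the autosome arms. Bars carry Wilson 95% intervals, diamonds are the flanks 1000 bp away and dashes the windows tiled along each set of arms; the CA repeat reaches 16.3% on X against 9.31%.

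Windows with much repeat-masked sequence were more frequent on X as well. In 45 X peaks, 13.6% (10.3 to 17.7), more than 50% of the 201 bp was soft-masked in the reference, against 4.63% of autosome peaks (3.76 to 5.68), with 3.65% to 6.61% on the single arms. Along the arms the tiled windows were alike, at 9.05% on X and 9.13% on the autosome arms. The median GC content at the summit was 38.8% on X and 40.3% on the autosome arms, with 42.3% in the tiled windows of both. The part of masking in the repeat counts was not tested.

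The next question was how densely CrebA-eGFP peaks cover the X chromosome. The X held 14.1 optimal peaks per Mb and the autosome arms 17.1, a ratio of 0.824 (Wilson-based 95% interval 0.733 to 0.927). Each of the other large arms was denser, with 18.4 per Mb on 2L, 17.3 on 2R, 17.8 on 3L and 15.2 on 3R. The small chromosome 4 stood at 14.1 per Mb from 19 peaks. In lists of equal length made from each replicate by signal, the X to autosome ratio was 0.807 in replicate 4 and 0.772 in replicate 2. The X contributed 15.1% of the peaks of X and the autosome arms, 17.8% of their bases and 15.8% of their protein-coding genes. Scaled to protein-coding genes rather than bases, the ratio rose to 0.946.

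The deficit was larger in the weak part of the list. In the pooled relaxed list the X held 3560 peaks, 151 per Mb against 238 per Mb on the autosome arms, a ratio of 0.636 (0.614 to 0.658). By rank of signal among peaks of X and the autosome arms, the ratio was 0.882 in the first 100, 1.21 (0.814 to 1.79) for ranks 101 to 250, 0.830 for 251 to 500 and 0.779 for 501 to 1000. It was 0.754 for ranks 1001 to 2000, 0.667 for 2001 to 4000, 0.660 for 4001 to 8000, 0.585 for 8001 to 16000 and 0.629 for the rest. The intervals of the first 3 bins include 1 and those of the later bins do not. Of the X peaks of the pooled list, 331 of 3560 were in the optimal list, 9.30% (8.39 to 10.3), beside 7.46% over all chromosomes and 7.17% (6.86 to 7.49) on the autosome arms. Among the single arms 2R came close to the X at 8.56% (7.82 to 9.36), and the others ran from 6.36% to 7.48%. The higher X share held at promoters, with 20.03% (17.0 to 23.4) on X against 16.0% (14.9 to 17.0), and away from them, with 7.13% (6.25 to 8.11) against 5.15% (4.86 to 5.46). The optimal list acts as a cutoff on signal: the 3 weakest X peaks inside it had 77.34 (an intron of Pde9), 77.23 (promoter of Fas2) and 77.04 (promoter of Raf), and the 3 strongest outside had 76.83 (kirre), 76.48 (Ten-a) and 76.26 (sdk), all in introns.

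**Figure D2:**
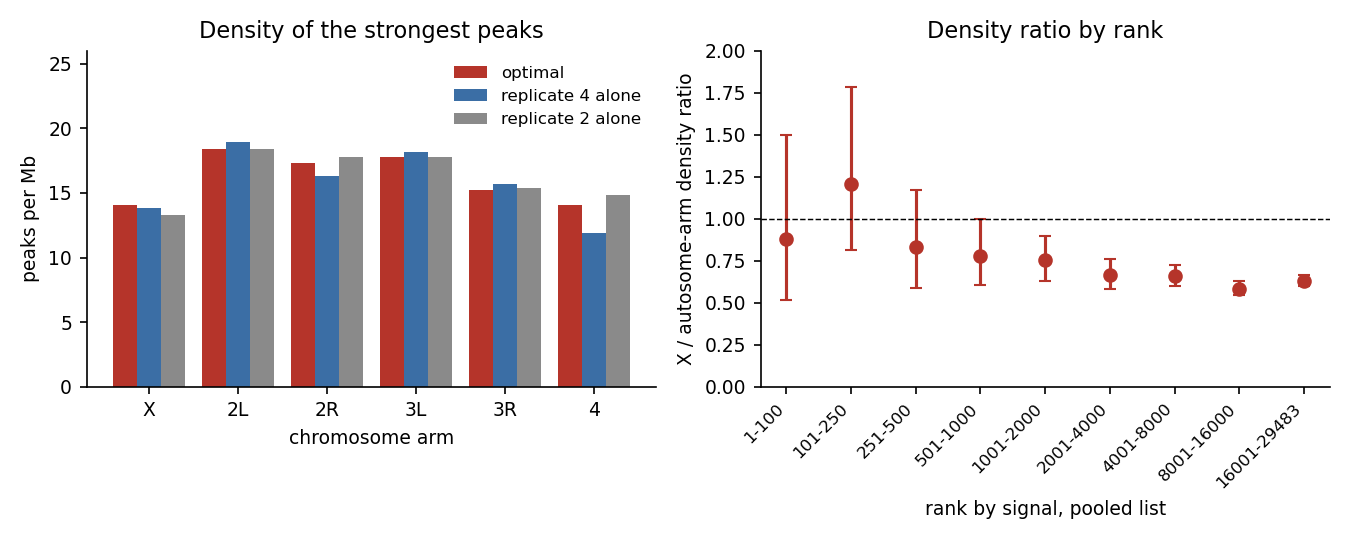
Left, peaks per Mb on each arm in the optimal list and in lists of the same length made from each replicate alone, with X at 14.1, 13.8 and 13.3. Right, X to autosome-arm density ratio by rank of signal in the pooled list with 95% intervals, the dashed line marking equal density; the ratio declines from 0.882 in the first 100 to 0.629 in the last bin, with a high point of 1.21.

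Among the peaks of the optimal list, signal on X was close to that elsewhere. The list acts as a cutoff on signal on every arm, so its medians do not compare the strength of binding as a whole. The median was 112.8 on X (95% interval of the median 107.4 to 119.3) and 109.7 on the autosome arms (107.6 to 112.8), a ratio of 1.03. In the replicates alone the ratio was 1.04 and 1.07 (SD 0.0229, n = 2). The X signals ran from 77.0 to 588.6, while the strongest autosome peak reached 779.8. Signal is a value per peak given by the authors and was compared only within a list.

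X peaks lay more often in introns than peaks of the autosome arms joined. Of the 331, 173 were intronic, 52.3% (46.9 to 57.6), against 40.9% (38.7 to 43.1) on the autosome arms, where the single arms ran from 35.7% on 3L to 44.98% on 2R (40.4 to 49.7, an interval that overlaps that of X). At promoters, defined as a summit within 500 bp of any annotated start site, there were 120, or 36.3% (31.3 to 41.6), against 41.6% (39.4 to 43.8). Intergenic peaks made up 8.76% (29 peaks, 6.17 to 12.3) against 14.3% (12.8 to 16.0). That intergenic contrast rests largely on 3L, at 22.0%: 2L, 2R and 3R had 11.1%, 11.6% and 11.7%, within intervals that overlap that of X, and in replicate 4 alone 2R stood at 8.74% and X at 8.90%. Introns also make up more of the X, 43.4% of bases against 38.6%, and intergenic sequence less, 22.6% against 28.4%. Per Mb of the class itself, X introns held 17.0 peaks against 18.1, X promoters 40.4 against 51.4 and X intergenic sequence 5.46 against 8.61. In introns the single arms straddled the X, with 14.8 on 3R, 17.1 on 3L, 20.98 on 2L and 21.3 on 2R. For promoters (48.4 to 55.99) and intergenic sequence (6.85 to 12.1) all 4 arms were above it. In replicate 4 alone, however, 2R had 4.835 per Mb of intergenic sequence, below X at 5.46. Coding exons, 13.9% of X bases and 13.6% on the autosome arms, held no X summit (upper bound 1.15%) and 1 of the 1859 autosome summits. Another 5 were in non-coding exons, 3 in 5′ UTRs and 1 in a 3′ UTR. The median distance from summit to nearest start site was 1168 bp on X and 817 bp on the autosome arms.

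**Figure D3:**
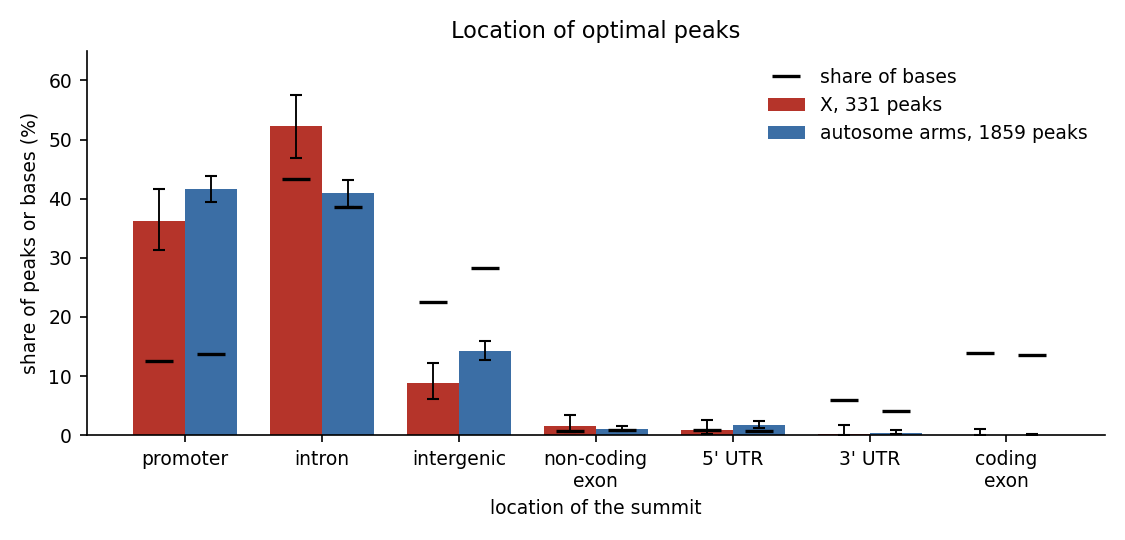
Share of optimal peaks by location of the summit, in percent with Wilson 95% intervals, for X (331 peaks) and the autosome arms (1859 peaks), with dashes for the share of bases of each class. Introns hold 52.3% of X peaks against 40.9%, and intergenic sequence 8.76% against 14.3%, the latter value raised by 3L at 22.0%.

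The X peaks were then looked up in each replicate. The optimal list was made from these same 2 replicates, so such matches are no independent support for its peaks. In the replicate lists of equal length, 195 of 331 X peaks (58.9%, 53.5 to 64.1) had a summit within 200 bp in both replicates, against 55.8% on the autosome arms (53.5 to 58.0). A further 65 were matched in replicate 4 only, 56 in replicate 2 only and 15 in neither. In the whole relaxed replicate lists, with 3778 and 3656 X peaks in replicates 4 and 2, 322 of 331 were matched in both. How many would match by position alone was not counted. Over those 322 the Spearman correlation of the signals across peaks was 0.492, and 0.437 on the autosome arms. Peaks are not replicates and no test is given. At X promoters the correlation was 0.627 over 118 peaks, in X introns 0.416 over 167 and in X intergenic sequence 0.235 over 28. Replicate 4 had the higher signal at 64 of the 322. The median log2 ratio of replicate 4 to replicate 2 was −0.42 on X and −0.45 on the autosome arms. A total of 20 of the 331 X peaks shared their matched replicate peak with a neighbouring X peak.

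**Figure D4:**
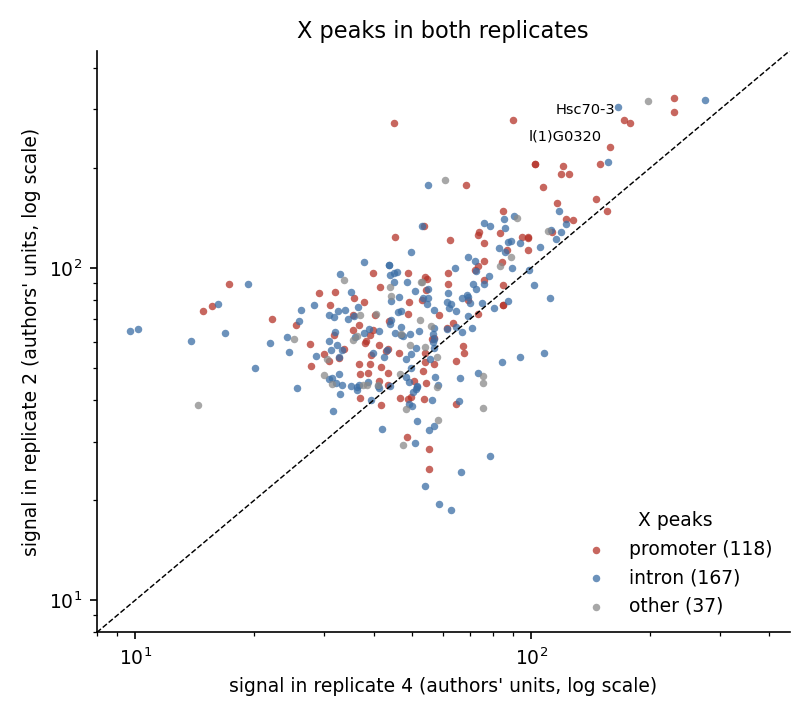
Signal of 322 X peaks in replicate 4 (horizontal) and replicate 2 (vertical), both in the units of the authors on log axes, coloured by location, with the line of equal signal dashed. Most points lie above the line. The labelled peaks of Hsc70-3 and l(1)G0320 are high in both replicates, but they were picked among peaks strong in the pooled list of these same replicates. Other strong peaks differ more, such as an intergenic one with 60.63 in replicate 4 and 183.3 in replicate 2.

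At the level of genes, 86 of 2196 X protein-coding genes had a promoter peak, 3.92% (3.18 to 4.81), beside 5.07% over all nuclear chromosomes and 5.25% (4.86 to 5.66) on the autosome arms. In the pooled relaxed list the shares were 16.0% on X (14.5 to 17.6) and 24.8% (23.97 to 25.5). Counting every peak inside a gene or within 5000 bp of it, 278 X genes (12.7%) had a peak, beside 15.7% over all and 16.2% on the autosome arms. Restricted to peaks inside the gene, the shares were alike, 5.65% on X (124 genes, 4.76 to 6.69) and 5.57% (5.17 to 6.00). Counting non-coding genes too, 99 X genes had a promoter peak, 12 of them non-coding RNA genes and 23 of the 99 with more than 1 such peak, once 4 annotation records of mature microRNAs were left out. The 120 X promoter peaks included 8 near more than 1 gene, so these genes share their value.

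The genes with the strongest X promoter peaks had varied functions. Gapdh2, a glycolytic dehydrogenase gene, had the strongest, with a pooled signal of 554.7, 229.8 in replicate 4 and 324.7 in replicate 2, 137 bp from a start site. The peak of ph-p, a Polycomb group gene of the PRC1 complex, had 523.9, with 229.6 and 294.6 in replicates 4 and 2. The strongest Hsc70-3 peak had 467.2, with 171.4 and 277.9. CG32772 had 455.5 at the promoter, with 177.4 and 273.0, and its intron held the strongest peak of the X at 588.6, with 274.4 and 320.2. At l(1)G0320, which encodes a subunit of the translocon-associated protein complex, the values were 384.5, 157.8 and 231.7. All of these were higher in replicate 2 than in replicate 4.

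The next genes were the phosphatase gene Ptpmeg2 with 352.8, CG43658 with 312.9, the transcription factor gene NFAT with 310.4, lncRNA:CR44655 with 304.4, and pdgy, an acyl-CoA synthetase gene, with 303.4 from a peak shared with lncRNA:CR44831. Tlk followed with 302.7, lncRNA:CR44619 with 271.3, lncRNA:CR45541 with 262.9, MFS10 (a transporter) with 261.3 and the forkhead gene CHES-1-like with 249.4. The innexin gene ogre had 238.1, lncRNA:CR45668 230.6, the HMG-box gene bbx 221.6 and CG8034 213.3. The bZIP genes CrebB and Atf3 had 211.0 and 201.3, the signal peptidase gene Spase25 199.5 and prage 195.7. Of the genes named CHES-1-like differed most between the replicates, with 68.62 in replicate 4 and 177.1 in replicate 2, while pdgy had nearly equal values of 155.2 and 148.1.

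**Figure D5:**
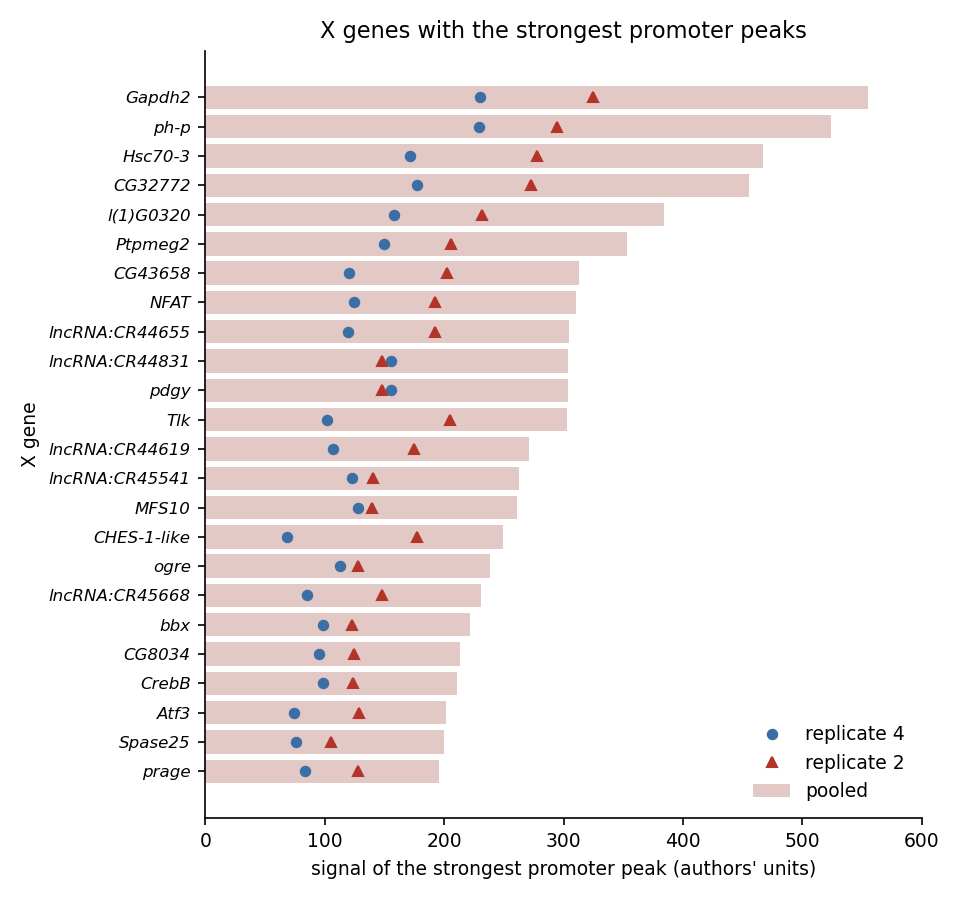
Signal of the strongest promoter peak of 24 of the 25 X genes with the highest values, in the units of the authors: bars for the pooled list, circles for replicate 4 and triangles for replicate 2. Gapdh2 leads at 554.7, and replicate 2 is the higher in all but pdgy and lncRNA:CR44831, which share a peak.

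Away from promoters the strongest X peaks lay mainly in introns, as did all X peaks away from promoters (173 of 211). After the CG32772 intron came an exon of lncRNA:CR44619 with 509.1, then introns of LPCAT, a phospholipid acyltransferase gene, with 467.4, of Tlk with 367.1 and 254.9, of the RNA-binding protein gene Imp with 259.0, of the splicing helicase gene Prp16 with 242.2 and of the kinase gene Raf with 240.6. Another peak in exonic sequence of lncRNA:CR44619 had 240.4. Of the 10 strongest, 1 was intergenic, beside 29 of the 211. This intergenic peak had 240.8 and lay 11134 bp from the nearest start site, that of CG14621. Its replicate signals were 60.63 and 183.3, a wider gap than at the CG32772 intron.

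Several X genes collected many peaks. Tlk (chrX:3720007-3789770) held 13 within the gene, Mnt (chrX:3671801-3701672) 11, kirre, a myoblast fusion adhesion gene (chrX:2740384-3134532), 10, and the mRNA decay factor gene Tis11 (chrX:12659415-12682560), the corepressor gene Smr (chrX:12684203-12742618) and lncRNA:CR44999 8 each. Mnt was the densest of these, with 36.8 peaks per 100 kb, and kirre the least dense, with 2.54. The largest cluster of peaks, 16 with summits from 12723495 to 12755692, ran from Smr over lncRNA:CR44619 and CG4004. When summits within 10000 bp were joined, 11 X clusters of at least 5 peaks held 81 peaks, 24.5% of the X total, against 22.7% on the autosome arms. Single peaks made up 32.3% on X and 32.0% on the autosome arms, so clustering was alike. By position, the fourth Mb from the start of the X sequence held 51 peaks and the thirteenth held 33, while the last 3.54 Mb of the X together held 10.

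The X members of 12 gene lists were read against the shares of all X protein-coding genes given above, 3.92% with a promoter peak (5.07% over all nuclear chromosomes, 5.25% on the autosome arms) and 12.7% with a peak inside or within 5000 bp. The lists are small, and nothing particular to a list is drawn from its count. Among 19 early secretory genes, 3 had a promoter peak, Hsc70-3, l(1)G0320 and Spase25, and 6 had a peak inside or within 5000 bp, which adds the genes opm, Gmap and Tpst. On the autosome arms 12 of 63 such genes had a promoter peak and 18 of 63 a peak inside or within 5000 bp. Of 5 glycolysis and pentose phosphate genes, 2 had a promoter peak, Gapdh2 and the hexokinase gene Hex-A with 183.9, while Zw, Pgd and Pfrx had none nearby, and on the autosome arms 2 of 17 had one. Of 6 Polycomb and trithorax group genes, 2 had one, ph-p and the BET family gene fs(1)h with 156.2, beside 3 of 27 on the autosome arms. Of 6 ecdysone genes, br, an early gene of the hormone response, had a promoter peak of 172.4 and 6 peaks inside or nearby; Hr4 and gce had peaks nearby and Met, usp and Cyp18a1 had none. The autosome arms had promoter peaks at 12 of 33 ecdysone genes.

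In the signalling lists, 1 of 10 Notch, Wnt and Hedgehog genes had a promoter peak, the glycogen synthase kinase gene sgg with 166.3, and Notch itself (N) held 4 peaks inside the gene with none at its own promoter; the autosome arms had 2 of 25. None of 12 JNK and stress kinase genes and none of 9 immune genes had one, beside 3 of 18 and 2 of 31 on the autosome arms. Of 28 patterning transcription factors, sd with 142.3 and ct with 120.0 had a promoter peak, beside 11 of 41 on the autosome arms. In the relaxed list 18 of the 28 had one. The relaxed share over all protein-coding genes was 16.0% on X and 23.65% on all nuclear chromosomes. The relaxed count of the autosome members was not made. Of 19 cytoskeletal and muscle genes, 3 had one: ogre, the actin linker gene Moe with 177.0 and the innexin gene Inx2 with 107.1, beside 7 of 28 on the autosome arms. None of 15 cytoplasmic ribosomal protein genes and none of 6 glue genes had one, beside 4 of 62 and 2 of 7. The 5 X genes of the dosage compensation list, the roX1 and roX2 RNA genes, mof, Sxl and Nup153, had no optimal peak inside or within 5000 bp and no relaxed promoter peak, while 3 of 10 list members on the autosome arms had a promoter peak. With 12.7% of all X genes having a peak that near, a count of 0 among 5 genes is no result about them.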

How the data were processed

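ChIP-seq peak lists in narrowPeak format were deposited for 1 group of 2 biological replicates. Per the deposited notes, the authors called relaxed peaks (peaks plus background) against a control, once per replicate and once on the pooled alignments, and cut an optimal list from them by the irreproducible discovery rate (IDR). The aligner, the peak caller with its settings and the handling of duplicate reads were not given in the sources used here. The signal of each peak and its −log10 q-value are the authors' deposited values; peaks were ranked by signal, whose scaling to depth is not stated. Depth is unknown, since no read counts were used. The −log10 q-values entered no comparison. All 331 X optimal peaks were found in the pooled list.

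Coordinates are dm6, 1-based. Genes came from Ensembl release 115 (transposable elements left out) and sequence from the RefSeq Release 6 assembly. Locations were assigned to summits over all transcripts, promoter first, then 5′ UTR, coding exon and 3′ UTR, then exons of non-coding genes, introns and intergenic sequence. The replicate lists were shortened to 2238 peaks by signal, the length of the optimal list, where compared with it, and summits within 200 bp were matched. A peak counts for every gene whose start site lies within 500 bp. The autosome arms are 2L, 2R, 3L and 3R joined. Motif windows were 201 bp. Shares carry Wilson 95% intervals; no p-values were computed, because peaks of 1 group are not replicates of a condition. Location, motif and density steps were tested on simulated data. Analysis used Python 3.11.15, pandas 2.3.3, NumPy 2.4.6 and SciPy 1.17.1.

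The X peaks and the gene lists were chosen with earlier results of these data known. Of 534 list names, 22 were matched as synonyms and 15 matched no gene and were left out. Genes named are those among the 25 with the strongest X promoter peaks, the 10 strongest X peaks away from promoters, the genes with the most peaks inside (6, since 3 tied), list members with a promoter peak and the 3 X peaks on each side of the end of the list. Holders of the CACGTCA core, of printed repeats and other list members were named after their values were seen. An item among the 25 and a sequence are not reported here.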

Additional observations from a re-analysis of the deposited data

How the results depend on the processing

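The X to autosome density ratio of the optimal peaks stayed under 1 in each alternative, though not always clearly. Among the strongest 1119 optimal peaks it was 0.861, with an interval of 0.731 to 1.014 that includes 1. The ratio fell to 0.675 in the optimal dm3 list (arm spans taken from the pooled dm3 peaks). It rose to 0.946 per protein-coding gene, a value given without an interval. With a replicate left out it was 0.772 to 0.807. The optimal dm3 list is longer, 3699 peaks against 2238 in dm6, so its values are not at a like cutoff. The signal ratio ran from 1.04 to 1.07 without a replicate and was 1.06 at promoters. Defining promoters by 250 bp, 1000 bp or gene 5′ ends gave promoter shares on X of 25.1%, 47.7% and 21.2%, and shares of genes of 2.96%, 5.10% and 2.64%; the first pair gave intron shares of 59.2% and 43.8%. Among the strongest 1119 optimal peaks, 2.32% of X genes had a promoter peak. X stayed below the autosome arms for promoters and genes and above them for introns under each of these settings. In the dm3 lists, with that longer optimal list, 13.7% of X pooled peaks were optimal, against 12.3% on the autosome arms. Matching in both replicates was 91.8% among the strongest 1119 and 97.3% in the whole relaxed lists. For GAGAG, X fell below the autosome arms without replicate 2 (41.4%, against 42.5% without replicate 4) and among the strongest 1119 peaks (45.3% against 45.7%), and the cause was not tested. The X share was 20.9% within 50 bp of the summit, 54.2% at promoters and 37.0% away from them.

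Settings added after the data were seen kept X above the autosome arms for GAGAGAGA, CACACACA, CACGTCA and masked windows, and below for intergenic peaks. For CACACACA the gap narrowed to 14.7% against 10.5% among the strongest 1119 and 14.4% against 10.5% without replicate 4. Without replicate 2 it was 15.6% against 9.04%. No intervals are given for these settings. CACGTCA stood at 5.88% on X and 1.97% on the autosome arms among the strongest 1119. That X value is the same 10 peaks over 170 X peaks, so its rise is no further check. Intergenic peaks on X fell to 5.75% without replicate 4. No paired analysis was possible because the labels give only 1 group. Depth is unknown, so its limits could not be set.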
